A study of Mus musculus with 11 samples.

Results

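At most promoters of mouse embryonic stem cells, nascent reads of the gene far outnumber those of the RNA that leaves the promoter in the opposite direction, the upstream antisense RNA (uaRNA). The regions described here are the exceptions, at which antisense reads rivalled the exon reads of the gene under a control siRNA. They were the uaRNA regions whose mean over the 3 siNT libraries was 20 or more depth-normalized reads and at least 0.5 times the mean exon reads of the host gene, the gene whose promoter they leave. The limits were met by 475 of 5867 uaRNA regions, out of 4023 whose mean was 20 or more. The siNT levels of the uaRNA and the host therefore chose the members and are given below as a description.

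Most promoters of mammals fire in both directions. The antisense product is usually short, unspliced, stopped by early polyadenylation or by attenuating complexes, and destroyed by the nuclear exosome. Restrictor, formed by ZC3H4 and WDR82, is one such attenuating complex. A read upstream of a start and antisense to it need not come from such a product, because a divergent gene, a gene that ends there, or a small structured RNA can lie in the same stretch of DNA.

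Nascent RNA was measured by TT-seq, in which RNA made during a pulse of 4-thiouridine (4sU) is pulled down and sequenced. All libraries came from wild-type F121-9 cells, an established female mouse embryonic stem cell line of CAST/129 hybrid background, grown without serum in LIF and 2 inhibitors. Cells received 30 nM of an siRNA against Zc3h4 (siZC3H4, 2 libraries, replicates 2 and 3) or of a non-targeting siRNA (siNT, 3 libraries, replicates 1, 2 and 3), were given 500 µM 4sU for 20 minutes and were harvested 47 hours after transfection. The degradable-ZC3H4 samples of the series are not analysed here. The labels do not say that replicates came from separate cultures, so the p-values measure the spread between these samples, which may be technical.

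Each value is a number of reads that the authors divided by a factor for the depth of its library. Exon reads before division totalled 16173640 and 26548710 in the siZC3H4 libraries and between 14840637 and 18479834 in the siNT libraries. Reads of uaRNA regions totalled 1448879 and 2648683 in the siZC3H4 libraries and between 996927 and 1195995 in the siNT libraries. Exon reads of Zc3h4 itself were 7285 and 6718 in the libraries labelled siZC3H4 and 3465, 3610 and 3363 in the siNT libraries, a rise of log2 1.01 ± 0.11 SE (limma adjusted p = 0.00431). Nascent reads do not show the level of the mature target, so this leaves the label unsettled, and each direction below is drawn from libraries labelled siZC3H4. None of 9 stem cell markers was called by limma (1 had an unadjusted p under 0.05, and edgeR and DESeq2 called 0). None of the 9 tested markers of fibroblasts, trophoblast, endoderm and neural cells was called either (2 neural markers had an unadjusted p under 0.05, and edgeR and DESeq2 called 0). Pulled-down RNA of a bulk culture cannot tell a change in every cell from a change in some of them.

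Sequences of RefSeq (GRCm38.p6) show what lies at these promoters. Each window runs from 250 bases before to 50 bases after the RefSeq start of the host, in the direction of the host. The first pair shows promoters where the antisense reads may come from another known RNA, and capitals mark the bases that lie inside it. For Parp2, which encodes a poly(ADP-ribose) polymerase of DNA repair, they are 106 bases of Rpph1, the RNA of RNase P, which trims the 5′ ends of tRNAs. For 1810009A15Rik they are 129 bases of Snora57, a small nucleolar RNA, and Mir5136, a microRNA gene. The noncoding gene 5730408K05Rik also starts in the 1 kb upstream of 1810009A15Rik, on the strand its antisense reads come from, and was not marked.
Parp2 (chr14:50807666-50807965, plus strand): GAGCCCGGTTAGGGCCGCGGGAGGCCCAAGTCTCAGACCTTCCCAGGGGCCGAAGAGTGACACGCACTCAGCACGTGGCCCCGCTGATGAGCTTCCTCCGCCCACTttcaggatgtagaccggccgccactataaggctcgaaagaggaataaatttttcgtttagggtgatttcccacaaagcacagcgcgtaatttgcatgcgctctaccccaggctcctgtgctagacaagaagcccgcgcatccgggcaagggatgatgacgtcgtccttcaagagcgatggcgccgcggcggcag
1810009A15Rik (chr19:8888633-8888932, plus strand): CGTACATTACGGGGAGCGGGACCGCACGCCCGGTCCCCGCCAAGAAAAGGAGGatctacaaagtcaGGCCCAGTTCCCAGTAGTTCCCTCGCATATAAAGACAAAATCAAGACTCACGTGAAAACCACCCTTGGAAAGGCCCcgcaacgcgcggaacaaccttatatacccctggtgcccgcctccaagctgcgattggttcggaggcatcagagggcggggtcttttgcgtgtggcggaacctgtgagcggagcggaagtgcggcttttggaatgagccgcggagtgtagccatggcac

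The second set shows 5 promoters with no annotated gene in the 1 kb upstream, and capitals mark CG dinucleotides. The antisense reads of the first 3 rose in the siZC3H4 libraries, and those of the last 2 fell. The windows of H2ac18, Hdhd3 and Castor1 held 41, 20 and 21 CG dinucleotides, and those of Pycard and Endog held 3 and 15.
H2ac18 (chr3:96245247-96245546, plus strand): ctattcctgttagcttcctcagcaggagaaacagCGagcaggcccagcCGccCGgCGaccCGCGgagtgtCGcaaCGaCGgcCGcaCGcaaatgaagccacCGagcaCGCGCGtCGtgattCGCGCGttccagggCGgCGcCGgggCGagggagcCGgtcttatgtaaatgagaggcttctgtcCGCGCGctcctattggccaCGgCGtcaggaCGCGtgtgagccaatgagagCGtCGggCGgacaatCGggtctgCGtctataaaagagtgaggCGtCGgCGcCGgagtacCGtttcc
Hdhd3 (chr4:62502151-62502450, minus strand): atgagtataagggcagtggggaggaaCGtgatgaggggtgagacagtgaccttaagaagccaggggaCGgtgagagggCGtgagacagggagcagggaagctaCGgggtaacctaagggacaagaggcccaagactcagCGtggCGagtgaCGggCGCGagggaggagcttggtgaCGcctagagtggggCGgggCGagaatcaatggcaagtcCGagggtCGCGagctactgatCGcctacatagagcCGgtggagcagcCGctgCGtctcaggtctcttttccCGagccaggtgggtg
Castor1 (chr11:4217975-4218274, plus strand): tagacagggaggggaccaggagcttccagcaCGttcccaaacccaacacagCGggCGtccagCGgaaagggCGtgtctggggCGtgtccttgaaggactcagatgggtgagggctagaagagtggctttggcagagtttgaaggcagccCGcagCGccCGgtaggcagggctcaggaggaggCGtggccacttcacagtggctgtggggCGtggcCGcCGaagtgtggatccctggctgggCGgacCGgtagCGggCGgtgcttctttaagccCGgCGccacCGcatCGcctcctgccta
Pycard (chr7:127993818-127994117, minus strand): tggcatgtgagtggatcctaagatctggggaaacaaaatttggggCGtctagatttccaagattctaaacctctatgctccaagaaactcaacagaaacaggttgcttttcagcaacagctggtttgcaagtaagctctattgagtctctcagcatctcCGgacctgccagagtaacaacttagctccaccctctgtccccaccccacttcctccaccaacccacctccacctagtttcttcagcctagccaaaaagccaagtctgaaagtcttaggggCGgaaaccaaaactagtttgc
Endog (chr2:30171274-30171573, plus strand): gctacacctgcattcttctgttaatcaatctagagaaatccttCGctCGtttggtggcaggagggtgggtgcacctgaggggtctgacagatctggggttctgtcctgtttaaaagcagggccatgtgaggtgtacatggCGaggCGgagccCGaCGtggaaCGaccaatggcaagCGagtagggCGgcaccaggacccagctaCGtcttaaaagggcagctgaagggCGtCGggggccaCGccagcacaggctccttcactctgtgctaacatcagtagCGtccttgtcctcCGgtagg

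These windows are examples, and no link between CG number and direction of change was tested. RefSeq windows within 500 bases of the host start were found for 334 of the 475 members (70.3%), too few for a comparison of base composition or motifs over the members, which is therefore void.

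The mature microRNAs below are made from genes that lie in the 1 kb upstream of Ndufaf3, an assembly factor of mitochondrial complex I, and on the strand its antisense reads come from. They are shown because pieces of their precursor would be counted as antisense to Ndufaf3. Capitals mark the seed, bases 2 to 8.
mmu-miR-191-5p (chr9:108568325-108568347, plus strand): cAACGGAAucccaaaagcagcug
mmu-miR-425-5p (chr9:108568789-108568811, plus strand): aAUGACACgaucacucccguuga

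The siNT means of the members' uaRNAs had a median of 270 reads, against 37.0 for the other 5392 uaRNAs. Their hosts had a median of 225 exon reads, against 875 for the other hosts. These medians restate the rule, which can be met from either side. Hosts below the lower quartile of all hosts (332 exon reads) made up 289 members (60.8%), and uaRNAs at or above the upper quartile of all uaRNAs (121 reads) made up 336 (70.7%). Both held for 150 members, only the low host for 139 and only the high uaRNA for 186, and no member lacked both. The ratio compares numbers of reads and not reads per base, since the uaRNA table gives no lengths. Sense reads are counted over exons alone throughout, so nascent reads of introns are missing from the sense side of the ratio. Member hosts spanned a median of 13663 bases of the genome. Member hosts also had shorter transcripts, with a median of 2052 bases against 2944 for the other hosts. Per kb of transcript, the median siNT exon reads were 114 for member hosts and 297 for the other hosts.

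**Figure D1:**
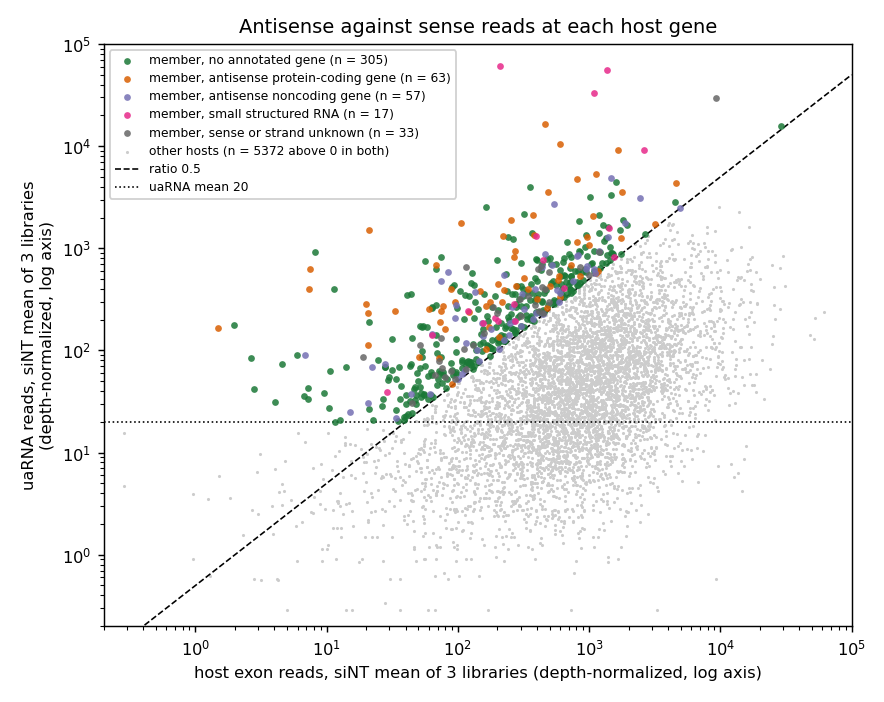
Mean antisense (uaRNA) reads against mean host exon reads in the 3 siNT libraries, both on log axes, for each host gene; coloured points are the 475 members by what is annotated in the 1 kb upstream, grey points the other hosts, and lines the limits of the rule. Members lie above both lines by construction, and the 3 with the most antisense reads, up to 60200, have a small structured RNA upstream.

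The antisense-to-sense ratio in siNT ran from 0.5 to 288 over the members, with a median of 0.935. It was between 0.5 and 1 at 249 members and at least 10 at 24. Just inside the limit stood Zfp74 and Zfp628, with ratios of 0.5004 and 0.5014, and just outside it Emc4, Kmt5b and Taf3, with 0.4996, 0.4982 and 0.4971. At the other limit, the uaRNAs of Gm21863, Phyhipl and Senp7 had means of 20.1, 20.4 and 20.7 reads. Those of Lekr1, Madcam1 and Pagr1b, which met the ratio, fell outside with 17.1, 16.8 and 15.6 reads.

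The libraries labelled siZC3H4 did not enter the rule, and there 454 of the 475 members (95.6%) kept a mean ratio of 0.5 or more. Over all regions 852 of 5867 (14.5%) had such a ratio there, and 398 of the 5392 other regions (7.38%). Ratios rose over the whole table in these libraries (median log2 change 0.87), which favours staying above the limit. The median ratio of members was 1.38 and 1.22 in the siZC3H4 libraries and 1.06, 0.895 and 0.912 in the siNT libraries. Every one of the 5 libraries gave a ratio of at least 0.5 at 352 members and of at least 1 at 165. With both limits applied to the siZC3H4 means, 451 members stayed inside, 24 left, and 361 other regions entered.

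The share of hosts with annotated RNA upstream was larger among members than elsewhere, which was counted and not tested. Another annotated gene lay within 1 kb before the start at 170 of 475 members (35.8%), against 1063 of the 5392 other hosts (19.7%). Each host was put in 1 class only, the first that applied. The first class, a gene of a small structured RNA (a tRNA, microRNA, small nuclear or nucleolar RNA, or the RNA of RNase P or MRP), held 17 members (3.58%) and 0.631% of other hosts. Of the rest, 63 members (13.3%) and 3.08% of other hosts had a protein-coding gene on the opposite strand. Of those then left, 57 members (12%) and 8.38% of other hosts had a noncoding gene on the opposite strand. A further 15 members had a gene whose strand is not given in the tables used, 18 had a gene on the same strand only, and 305 had none. The class of small structured RNAs was set without regard to strand. At Kctd11, Ufsp1, Akt1s1 and Krcc1 the small RNA upstream, a microRNA gene, lies on the strand of the host and not on that of the antisense reads.

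The 3 members with the most antisense reads had a small structured RNA upstream. The region of Ccdc107, next to Rmrp (chr4:43492785-43493059), the RNA of RNase MRP, which processes ribosomal RNA, had 34739 and 62632 reads in the siZC3H4 libraries and 47630, 56156 and 76815 in the siNT libraries. Its host exons had only 241 and 188 reads in siZC3H4 and 237, 200 and 191 in siNT. The groups overlapped, and the uaRNA did not pass the test (log2 -0.34 ± 0.20 SE, limma adjusted p = 0.121). Its value rests on single libraries: it was 0.086 without siZC3H4 replicate 2 and -0.15 without siNT replicate 3, and it passed the test as a fall without siNT replicate 1 (log2 -0.49) and without siZC3H4 replicate 3 (log2 -0.76).

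The region of Parp2, whose window is printed above with Rpph1 (chr14:50807447-50807771), had 28594 and 49762 reads in siZC3H4 and 46606, 52412 and 68702 in siNT. It fell by 0.55 ± 0.19 SE on the log2 scale (limma adjusted p = 0.0113), although 1 siZC3H4 library lay within the siNT range. The call was lost with DESeq2, with no filter on low values, without siZC3H4 replicate 2 (log2 -0.15) and without siNT replicate 3 (log2 -0.39). The region of Gtf3c6, a subunit of the polymerase III factor TFIIIC, lies near Rnu3a (chr10:40258468-40258679), a gene for U3 RNA of ribosomal RNA processing. It had 17370 and 33476 reads in siZC3H4 and 33586, 27485 and 39044 in siNT and fell by 0.45 ± 0.20 SE on the log2 scale (limma adjusted p = 0.0384). That call was lost with edgeR, with DESeq2, with no filter, with a filter of 50, with equal exon totals and without siNT replicate 3 (log2 -0.33), and without siZC3H4 replicate 2 the change was 0.019. Exon reads of Gtf3c6 were 2083 and 1911 in siZC3H4 and 1162, 1070 and 1060 in siNT and rose (log2 0.86, limma adjusted p = 0.0101). The strands of Rmrp, Rpph1 and Rnu3a are not given in the tables used, and whether they supply these reads was not tested.

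Of the 17 members with a small structured RNA upstream, 3 uaRNAs rose and 2 fell, and the other 12 were not called, with a median log2 change of -0.09, where 62.1% of all tested uaRNAs rose and 1.13% fell. At the 33 tested other hosts of that kind 14 rose and 3 fell, with a median of 0.39. Those that rose were at Kctd11, Fmc1 and Krcc1, and the microRNA gene upstream of Kctd11, Mir6924, lies on the strand of Kctd11. Fmc1, an assembly factor of ATP synthase, has a tRNA gene upstream, and its uaRNA had 564 and 456 reads in siZC3H4 and 215, 176 and 235 in siNT (log2 1.29 ± 0.23 SE, limma adjusted p = 5.31e-06). Krcc1, with Mir8112 upstream on its own strand, had 536 and 510 antisense reads in siZC3H4 and 163, 125 and 139 in siNT (log2 1.88 ± 0.24 SE, limma adjusted p = 2.39e-09). In both, every siZC3H4 library lay above every siNT library. At Ndufaf3, across from the microRNA genes printed above, the uaRNA had 972 and 741 reads in siZC3H4 and 666, 974 and 665 in siNT (log2 0.17 ± 0.21 SE), and the groups overlapped. The protein-coding gene Dalrd3 runs through the same stretch on the strand of those microRNAs. The uaRNA of 1810009A15Rik had 8059 and 8242 reads in siZC3H4 and 10522, 7936 and 9131 in siNT (log2 -0.16 ± 0.18 SE). The uaRNA of Tti2, a cochaperone gene with Snord13 upstream, had 1049 and 1381 reads in siZC3H4 and 1955, 1163 and 1619 in siNT (log2 -0.36 ± 0.21 SE), and it passed the test without siNT replicate 2 (log2 -0.56). Eapp, with the small nuclear RNA gene Gm22513 starting on the opposite strand, had 1103 and 845 antisense reads in siZC3H4 and 2101, 850.4 and 963 in siNT (log2 -0.31 ± 0.23 SE). Changes at the other 7, the uaRNAs of Ufsp1, Akt1s1, Ring1, Sacm1l, Acaa2, B4gat1 and Zfp27, ran from log2 -0.17 to 0.36 and did not pass the test.

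Genes on the opposite strand were the most frequent annotated class upstream. For 54 members such a gene within 1 kb was itself in the gene table. Of these genes 51 were protein-coding, and 19 of the 51 start within the 1 kb, while the others reach into it from a start elsewhere. Rps2, Dido1 and Nup62, named below, are of the latter kind and Prelid1 of the former. The siNT exon reads of the opposite-strand gene exceeded those of the host in 42 of the 54 and those of the uaRNA in 31. At the promoter of Rnf151, a ring finger gene, antisense reads were 15655 and 16937 in siZC3H4 and 17535, 14920 and 16718 in siNT. Exon reads of Rps2, the ribosomal protein gene across from it, were 16831 and 16693 in siZC3H4 and 17286, 15449 and 16497 in siNT. The host itself had 464 exon reads on average in siNT. At Gid8, a subunit of a ubiquitin ligase, antisense reads were 11544 and 12208 in siZC3H4 and 9559, 8633 and 9270.5 in siNT, and exon reads of Dido1 opposite were 7322 and 8353 in siZC3H4 and 7152, 8868 and 7969 in siNT. Antisense reads of Rab24, a small GTPase, averaged 4584 in siZC3H4 and 5288 in siNT, and Prelid1 opposite, a carrier of mitochondrial lipids, averaged 3277 in siZC3H4 and 4044 in siNT. Those of Atf5, a transcription factor, averaged 9494 in siZC3H4 and 10566 in siNT, and Nup62 opposite, a nuclear pore protein, averaged 7285 in siZC3H4 and 6892 in siNT.

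Several of the highest ratios had hosts with hardly any reads of their own. Kctd4, Ccdc148 and 4933428G20Rik averaged 1.48, 7.41 and 7.34 exon reads in siNT, too few for their change to be tested. Across from Kctd4 and Ccdc148 lie Gtf2f2 (a subunit of TFIIF) and Pkp4 (a plakophilin), with 823 and 2089 exon reads on average in siNT. Lrrc51, across from the spindle gene Numa1, had 1140 and 1195 antisense reads in siZC3H4 and 1486, 1590 and 1419 in siNT, and 25.5 and 36.3 exon reads in siZC3H4 and 16, 17.4 and 29.9 in siNT. Its ratio fell by 0.92 on the log2 scale (limma adjusted p = 0.0483), while neither side passed the test alone (uaRNA log2 -0.36, host log2 0.56).

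**Figure D2:**
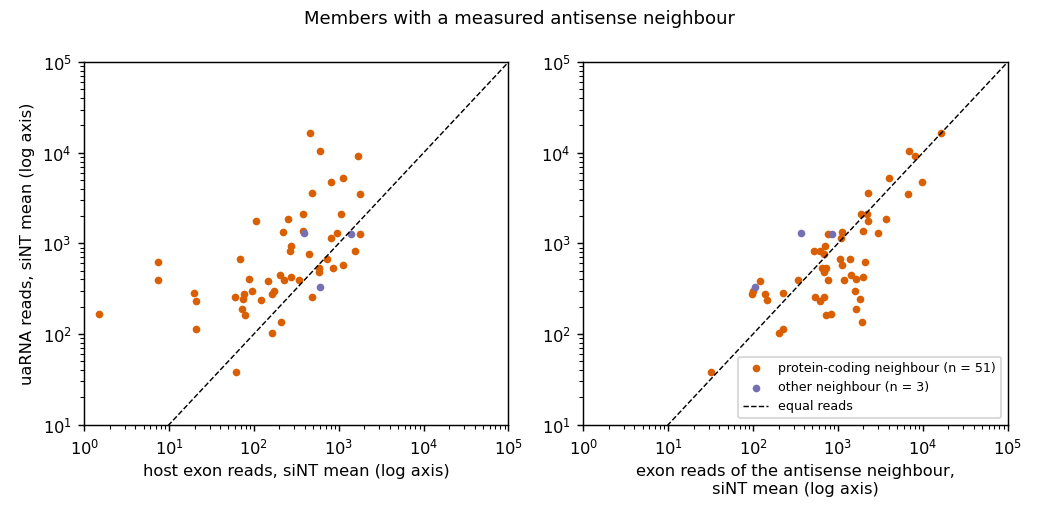
Mean siNT antisense reads of the 54 members with a measured opposite-strand gene within 1 kb, against the exon reads of the host (left) and of that gene (right), all on log axes; the dashed line marks equal reads. Exon reads of the opposite gene exceed those of the uaRNA in 31 of 54 members, which lie right of the line in the right panel.

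None of the 54 opposite-strand genes was called by limma (5 had an unadjusted p under 0.05, and edgeR and DESeq2 called 0). Over all genes 2.22% rose and 0.144% fell, so few calls would be met among 54 genes and nothing is read from their absence. The 54 uaRNAs across from these genes included 6 that rose and 1 that fell, with a median log2 change of 0.05, where 62.1% of all tested uaRNAs rose and 1.13% fell.

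The reach of 1 kb missed some known RNAs. H4c1 and H1f1, genes for histones H4 and H1, start 1936 bases apart on opposite strands (chr13:23760692-23761730 and chr13:23763666-23764406), with H3c1, a histone H3 gene, between them on the strand of H4c1. Antisense reads of H4c1 were 24174 and 23121 in siZC3H4 and 36351, 28423 and 23217 in siNT. Exon reads of H1f1 were 23656 and 22680 in siZC3H4 and 35870, 28121 and 22998 in siNT. The antisense reads of H4c1 were thus between 1.01 and 1.02 times the exon reads of H1f1 in every library. In turn, antisense reads of H1f1 were 12330 and 15816 in siZC3H4 and 16955, 14757 and 15822 in siNT, between 1.06 and 1.08 times the summed exon reads of H4c1 and H3c1. This pair was looked at after its values were seen, and histone genes have near-identical copies that can share reads. Within 5 kb, 94 members (19.8%) had an opposite-strand gene of the gene table, against 5.45% of other hosts. For the 40 of them with no such gene within 1 kb by its RefSeq coordinates, the gene's siNT exon reads exceeded those of the uaRNA in 29.

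Antisense reads rose at a smaller share of members than of other hosts in the siZC3H4 libraries. Of the 475 uaRNAs, all of which the rule carried past the filter, 196 rose (41.3%), 27 fell (5.68%) and the other 252 were not called, where 62.1% of all tested uaRNAs rose and 1.13% fell. The rule used the siNT arm of this contrast, so nothing is read from these counts alone. The median log2 change of members was 0.38 (interquartile range -0.02 to 0.83), against 0.93 for the other uaRNAs tested. Both siZC3H4 libraries lay above every siNT library at 243 members and below every one at 38, against 69.3% and 2.05% of all uaRNAs. Without siZC3H4 replicate 2, 121 members rose and 7 fell, and 36.3% and 0.339% of all uaRNAs. Without siNT replicate 3, 14 fell. When each table was scaled on itself, which centres the uaRNAs on their own median, 16 members rose and 204 fell, where 10.5% of all uaRNAs rose and 11.7% fell. Fmc1 (log2 0.40), Castor1 (log2 1.09) and 4930550C14Rik (log2 0.14) were among the risen uaRNAs that then missed the threshold.

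The same contrast was then taken in libraries that had not chosen the members. With members chosen on siNT replicate 1 alone and siZC3H4 compared with siNT replicates 2 and 3, 204 of 521 rose (39.2%), where 57.4% of all uaRNAs rose. Chosen on replicate 2, 175 of 439 rose (39.9%), where 55.3% of all did. Chosen on replicate 3, 174 of 458 rose (38%), where 60.4% of all did. The shares that fell were 3.45%, 6.61% and 3.06% of members, where 0.659%, 1.7% and 0.62% of all uaRNAs fell. In each split the median change of members, between log2 0.38 and 0.46, was below that of the other uaRNAs, between 0.85 and 0.97. The libraries of a split may not be independent of the one that chose the members. Samples with the same number deviated together (correlation 0.44 for uaRNAs), and siNT libraries may share deviations.

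The change was then set out by what lay upstream. Across from a protein-coding gene, 8 of 63 members rose and 2 fell, with a median log2 change of 0.07. At the 161 tested other hosts of that kind 84 rose and none fell by limma, with a median of 0.67. With an antisense noncoding gene upstream, 25 of 57 members rose and 2 fell (median 0.46), against 279 of 398 (70.1%) and 1 of the other tested hosts (median 0.97). With no gene in the 1 kb upstream, 150 of 305 members rose (49.2%) and 18 fell (median 0.56), against 2364 of 3693 (64.0%) and 24 of the other tested hosts (median 0.93). With none in 5 kb, 115 of 203 members rose (56.7%) and 10 fell (median 0.64), against 1826 of 2863 (63.8%) and 19 of the other tested hosts (median 0.93). Differences between these classes, and between members and other hosts within them, were not tested. The rule used the siNT arm of this contrast too, so nothing is read from these counts alone.

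**Figure D3:**
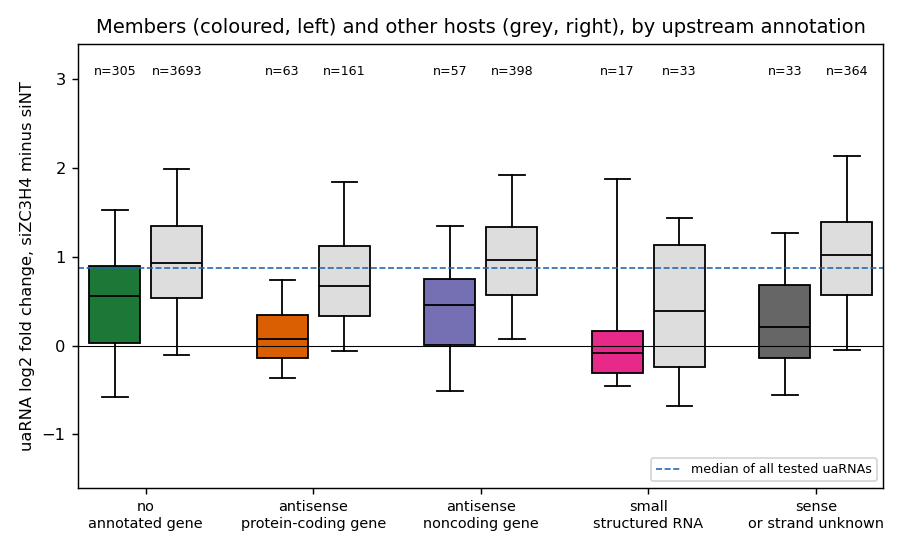
Change of antisense reads (log2, siZC3H4 minus siNT) for members (coloured, left of each pair) and other hosts (grey, right), by what is annotated in the 1 kb upstream; boxes show quartiles, whiskers the 5th and 95th percentiles, and n the uaRNAs tested. The median of members with no annotated gene was 0.56 and that of members across from a protein-coding gene 0.07, while the median of all tested uaRNAs, dashed, was 0.88.

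High antisense reads were also found outside the rule. Among the other uaRNAs whose siNT mean was at or above the members' median, 300 of 438 rose (68.5%) and 7 fell, with a median log2 change of 0.75. By ratio, 126 of 249 members between 0.5 and 1 rose and 9 fell, while 17 of 68 between 2 and 5 rose and 10 fell. Among the 24 members with a ratio of 10 or more 4 rose and 2 fell. Among the 305 members with no gene in the 1 kb upstream, the risen shares were 55.7%, 49.3%, 25.6%, 40% and 36.4% from the lowest of 5 ranges of the ratio to the highest, which held 11 members. The ratio and the change share the siNT libraries, so a siNT value that is high by chance raises the one and lowers the other.

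**Figure D4:**
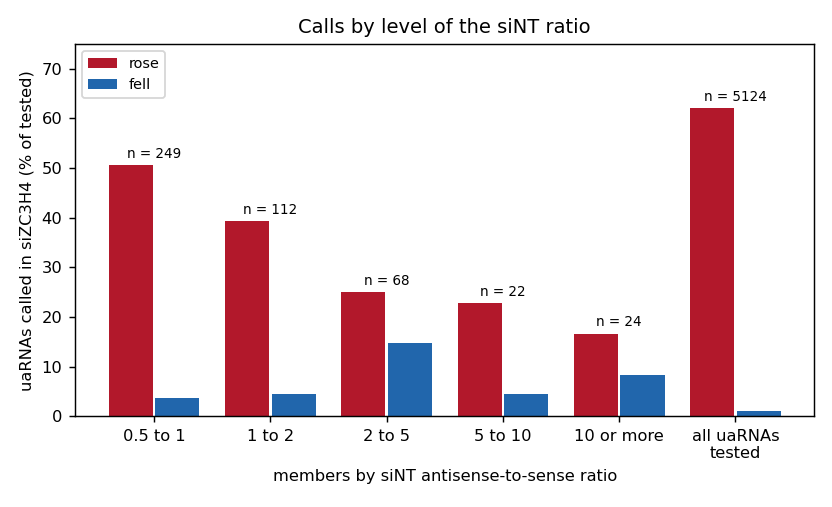
Share of uaRNAs that rose or fell in the siZC3H4 libraries (percent of those tested), for members in 5 ranges of the siNT antisense-to-sense ratio and, at the right, for all uaRNAs tested; n is the number tested. The risen share was 50.6% at ratios of 0.5 to 1 and 16.7% at 10 or more, against 62.1% over all.

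The largest rises were at promoters where both sides were modest in siNT. The uaRNA of Kctd11, an adaptor of a ubiquitin ligase that dampens Hedgehog signalling, had 342 and 214 reads in siZC3H4 and 45, 40.9 and 30.7 in siNT, a 6.9-fold rise (log2 2.79 ± 0.29 SE, limma adjusted p = 8.67e-12). Exon reads of Kctd11 were 43.6 and 43.0 in siZC3H4 and 34, 32.2 and 20.5 in siNT and did not pass the test (log2 0.60). The uaRNA of H2ac18, a histone H2A gene, had 123 and 146 reads in siZC3H4 and 19, 17.4 and 30.7 in siNT (log2 2.57 ± 0.33 SE, limma adjusted p = 3.26e-09). Its host had 20.9 and 26.8 exon reads in siZC3H4 and 56, 19.1 and 41.0 in siNT, and reads of this gene are uncertain because H2ac19 is a near-identical copy. In both, antisense reads separated the groups while sense reads of H2ac18 overlapped.

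The uaRNA of Hdhd3, a hydrolase gene, had 345 and 253 reads in siZC3H4 and 69, 61.7 and 48.6 in siNT (log2 2.30 ± 0.27 SE, limma adjusted p = 3.48e-10). That of Ccl27a, a chemokine gene, had 295 and 249 reads in siZC3H4 and 57, 33.9 and 62.3 in siNT (log2 2.43 ± 0.29 SE, limma adjusted p = 2.77e-10). That of Nfatc2, a transcription factor activated by calcineurin, had 207 and 141 reads in siZC3H4 and 47, 29.6 and 36.7 in siNT (log2 2.17 ± 0.30 SE, limma adjusted p = 2.09e-08). None of these 3 hosts passed the test (log2 -0.81, 0.83 and 0.66 for Hdhd3, Ccl27a and Nfatc2), and none had an annotated gene in the 1 kb upstream.

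Rises were also found where siNT antisense reads were more numerous than at the promoters just named, though at Tbc1d7 (siNT mean 174) they lay under the members' median of 270. The uaRNA of Trmo, a tRNA methyltransferase, had 1825 and 1401 reads in siZC3H4 and 489, 359 and 451 in siNT (log2 1.89 ± 0.21 SE, limma adjusted p = 7.33e-11). Its host exons had 969 and 1133 reads in siZC3H4 and 810, 822 and 796 in siNT, so the ratio was 1.88 and 1.24 in siZC3H4 and 0.604, 0.437 and 0.566 in siNT. Antisense reads thus outnumbered the exon reads of the host in both siZC3H4 libraries and in none of the siNT libraries. The uaRNA of Tbc1d7, a subunit of the TSC complex that restrains mTORC1, had 1139 and 593 reads in siZC3H4 and 163, 218 and 140 in siNT (log2 2.26 ± 0.25 SE, limma adjusted p = 2.73e-11); the noncoding gene Gm40929 starts across from it. The uaRNA of Castor1, the arginine sensor of mTORC1, had 2262 and 703 reads in siZC3H4 and 362, 594 and 151 in siNT (log2 1.98 ± 0.30 SE, limma adjusted p = 1.16e-07). The 2 siZC3H4 libraries of Castor1 differed more than 3 times, the lower one standing close to the highest siNT library. Without siZC3H4 replicate 2 its change was log2 1.136 (limma adjusted p = 0.044), and without siZC3H4 replicate 3 it was 2.82.

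The uaRNA of 4930550C14Rik, with a ratio of 115 in siNT the highest among members with no gene in the 1 kb upstream, had 2328 and 1544 reads in siZC3H4 and 976, 924 and 882 in siNT (log2 1.03 ± 0.20 SE, limma adjusted p = 2.27e-05). Its host had 15.8 and 11.5 exon reads in siZC3H4 and 7, 9.57 and 7.68 in siNT, so antisense reads far outnumbered these exon reads in all 5 libraries. Nkain2 had 212 and 229 antisense reads in siZC3H4 and 204, 137 and 186 in siNT (log2 0.35 ± 0.25 SE), and its host had at most 5 exon reads in any library.

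Falls were few, yet 27 of the 58 uaRNAs that fell over the whole table were members, which the rule favours by asking for high siNT reads. Both siZC3H4 libraries lay below every siNT library at 19 of the 27. Their number depends on the libraries, being 7 without siZC3H4 replicate 2 and 14 without siNT replicate 3. Pycard, the adaptor ASC of inflammasomes, had 254 and 479 antisense reads in siZC3H4 and 848, 650.4 and 993 in siNT, and its uaRNA fell by 1.23 ± 0.23 SE on the log2 scale (limma adjusted p = 8.62e-06). Its exon reads were 959 and 886 in siZC3H4 and 784, 767 and 628 in siNT (log2 0.35), so antisense reads were 0.264 and 0.540 times sense reads in siZC3H4 and 1.08, 0.848 and 1.58 times in siNT.

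B3gnt9, a glycosyltransferase, had 224 and 362 antisense reads in siZC3H4 and 758, 488 and 626 in siNT, and its uaRNA fell by 1.10 ± 0.23 SE on the log2 scale (limma adjusted p = 5.13e-05). Endog, a mitochondrial nuclease, had 78.1 and 126 antisense reads in siZC3H4 and 178, 155 and 247 in siNT (log2 -0.92 ± 0.27 SE, limma adjusted p = 0.00248). Its exon reads were 401 and 315 in siZC3H4 and 387, 435 and 312 in siNT and overlapped. Limd2, a LIM domain gene, had 56.6 and 112 antisense reads in siZC3H4 and 184, 81.7 and 239 in siNT (log2 -0.94 ± 0.30 SE, limma adjusted p = 0.00663), and its groups overlapped. Without siZC3H4 replicate 2 neither Endog (log2 -0.58) nor Limd2 (log2 -0.45) passed the test, and without siNT replicate 3 Limd2 (log2 -0.62) did not.

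Dynlt1b and Dynlt1c, light chains of the dynein motor, are near-identical copies, both on chromosome 17, so reads may be split between them. The uaRNA of Dynlt1b had 114 and 110 reads in siZC3H4 and 196, 190.4 and 247 in siNT (log2 -0.90 ± 0.25 SE, limma adjusted p = 0.00202). That of Dynlt1c had 91.1 and 93.7 reads in siZC3H4 and 170, 169.6 and 173 in siNT (log2 -0.88 ± 0.26 SE, limma adjusted p = 0.00305). Replicates lay close together in both groups. P2rx2, an ATP-gated channel, had 17.5 and 19.1 antisense reads in siZC3H4 and 45, 24.3 and 63.1 in siNT (log2 -1.13 ± 0.38 SE, limma adjusted p = 0.00846). At 1700028K03Rik there were 12.5 and 16.3 antisense reads in siZC3H4 and 31, 36.5 and 32.4 in siNT (log2 -1.17 ± 0.39 SE, limma adjusted p = 0.00773). The last pair rests on few reads and missed the threshold without siZC3H4 replicate 2 (log2 -1.07 for P2rx2 and -0.99 for 1700028K03Rik), P2rx2 also without siNT replicate 3 (log2 -0.82).

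**Figure D5:**
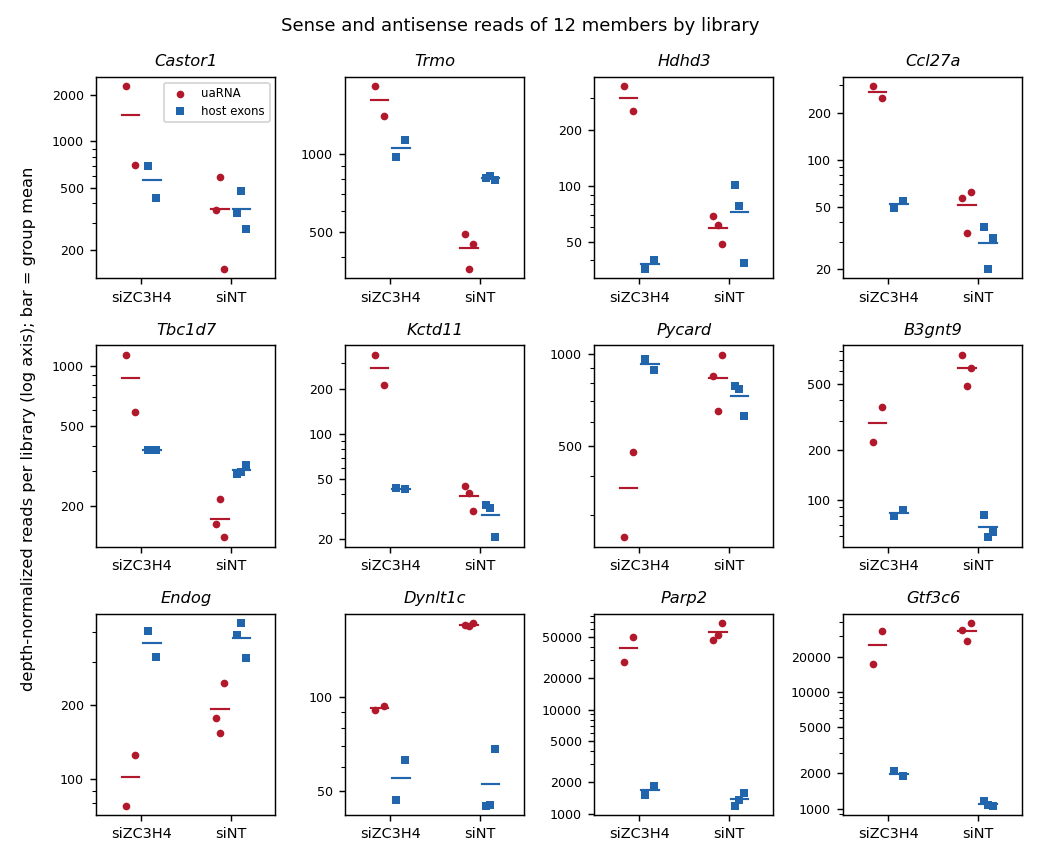
Depth-normalized antisense reads (red circles) and host exon reads (blue squares) per library on log axes for 12 members, siZC3H4 (2 libraries) left of siNT (3 libraries); bars are group means. In the first 6 panels antisense reads of every siZC3H4 library lie above every siNT library, in Pycard, B3gnt9, Endog and Dynlt1c below, and in Parp2 and Gtf3c6 the groups overlap.

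Few hosts changed in sense reads by the test. Of the 463 member hosts that passed the filter, 19 rose and 2 fell, and the median log2 change was 0.10. Of all genes tested 2.22% rose and 0.144% fell, and of all uaRNA hosts tested 1.1% rose and 0.0862% fell. The count of 19 risen hosts rests on single libraries. With 1 siNT library left out, 0 (replicate 1), 10 (replicate 2) or 40 (replicate 3) hosts rose, beside 0.016%, 1.32% and 5.42% of all genes. With 1 siZC3H4 library left out, 1 (replicate 2) or 4 (replicate 3) rose, beside 0.0803% and 0.642% of all genes. Both siZC3H4 libraries lay above every siNT library at 133 of the 475 hosts and below every one at 31, against 19.6% and 12.5% of all genes. The rule used the siNT exon reads of these hosts, so nothing is read from these counts alone. A siNT value low by chance favours both membership and a rise. At 8 of the 19 risen hosts the uaRNA rose too, where 41.3% of members and 62.1% of all uaRNAs tested rose. The ratio fell at 9 of the 19, where it fell at 7.78% of member pairs tested, and a risen host itself lowers the ratio. At Gtf3c6 the uaRNA fell. Tcam1, a cell adhesion gene of the testis, had 145 and 171 exon reads in siZC3H4 and 22, 20.9 and 36.7 in siNT (log2 2.57 ± 0.31 SE, limma adjusted p = 0.00569), and its antisense reads were 90.5 and 79.3 in siZC3H4 and 33, 20.9 and 31.6 in siNT (log2 1.57). Its ratio fell by 1.01 on the log2 scale (limma adjusted p = 0.013).

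Exon reads of 1700018B08Rik were 65.6 and 51.6 in siZC3H4 and 8, 13.9 and 11.9 in siNT (log2 2.30, limma adjusted p = 0.0146), while its antisense reads, 571 and 441 in siZC3H4 and 426, 457 and 311 in siNT, did not pass the test (log2 0.35). Isoc2b, Ccdc62 and Izumo2, the last of a family of sperm proteins, rose by log2 2.19, 1.82 and 1.76 in exon reads and by 1.56, 1.16 and 1.09 in antisense reads, and reads of Isoc2b may be shared with its close copy Isoc2a. The 2 hosts that fell were H2bu2, a histone H2B gene, with 41.3 and 48.8 exon reads in siZC3H4 and 118, 124 and 102 in siNT (log2 -1.33, limma adjusted p = 0.0238), and Bricd5, with 178 and 186 in siZC3H4 and 398, 350.4 and 282 in siNT (log2 -0.90, limma adjusted p = 0.0498). Their antisense reads fell as well (log2 -0.74 and -0.56). All 7 of these host calls were lost with no filter on low values, and when either siNT replicate 1 or siZC3H4 replicate 2 was left out, with log2 changes from 1.66 to 2.69 for the 5 that rose and from -1.30 to -0.78 for the 2 that fell.

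The balance of both sides within a library does not depend on its depth factor. Of the 463 pairs tested, the ratio rose at 113 members and fell at 36, where it rose at 53.9% of all pairs tested and fell at 1.23%; the rule used the siNT ratios, so nothing is read from this. The median log2 change of the ratio was 0.24, against 0.87 over all pairs. Without siZC3H4 replicate 2, 30 ratios rose and 9 fell, beside 18.5% and 0.34% of all pairs. The ratio in both siZC3H4 libraries lay above that in every siNT library at 178 of the 475 members and below it at 74, against 65.8% and 3.03% of all pairs. The largest rises were at H2ac18 (log2 3.13 ± 0.36 SE, limma adjusted p = 0.000122) and Hdhd3 (log2 3.12 ± 0.32 SE, limma adjusted p = 6.07e-05). At Hdhd3 antisense reads were 9.68 and 6.31 times sense reads in siZC3H4 and 0.683, 0.789 and 1.27 times in siNT. Kctd11, Tbc1d7 and Hspa1b, a gene for the chaperone Hsp70 with a near-identical copy, followed with log2 2.19, 1.94 and 1.87.

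The largest falls of the ratio were at 1700028K03Rik (log2 -2.44 ± 0.30 SE, limma adjusted p = 0.000166), 1700018B08Rik (-1.95), P2rx2 (-1.83), Pycard (-1.58) and Prss48 (-1.45). At Prss48, a serine protease across from Sh3d19, the sense side moved: exon reads were 62.8 and 68.8 in siZC3H4 and 20, 17.4 and 24.7 in siNT (log2 1.63, limma adjusted p = 0.0281), while antisense reads were 239 and 285 in siZC3H4 and 198, 294 and 207 in siNT (log2 0.19). At Pycard and P2rx2 the antisense side passed the test and the sense side did not, and both ratios missed the threshold without siZC3H4 replicate 2 (log2 -1.07 for Pycard and -1.50 for P2rx2).

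Genes that make or remove uaRNAs were measured beside them. Of 41 tested subunits of Restrictor, Integrator, the nuclear exosome and its adaptors, the cap-binding complex, U1 snRNP and the cleavage machinery, Zc3h4 alone rose and none fell by limma (4 had an unadjusted p under 0.05, and edgeR and DESeq2 called 1 each), and none of them was the host of a member. The median log2 change of the list was 0.0071, against 0.015 over all genes tested.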

How the data were processed

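TT-seq libraries of F121-9 cells were compared, 2 labelled siZC3H4 and 3 siNT. Cutadapt 1.14, STAR, featureCounts and DESeq2 are named in the submitters' processing notes, with no settings, beside the builds mm10 and dm6. The authors deposited depth-normalized signal for 5867 uaRNA regions, without coordinates, and for 13088 genes over exons. In both tables each value was a whole read count divided by 1 factor per library (1.767 and 1.046 for siZC3H4, 1, 1.15 and 1.172 for siNT), and with these factors 100% of values were whole within 0.01 reads. No columns were left unmapped.

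Members follow the rule given in the results. Members and gene lists were chosen with earlier results of these data known. Tests used limma 3.58.1 in R 4.3.3 (lmFit, eBayes with trend, siZC3H4 minus siNT, no block) on log2(value + 1), over all features with a mean of 10 or more in the 5 libraries (5124 uaRNAs, 12482 genes and 5106 ratios), with Benjamini-Hochberg adjustment at 0.05. The pseudocount understates changes of low features. Moderated degrees of freedom were 67.5 (uaRNAs) and 9.22 (genes), so single uaRNAs rest largely on spread shared over the table. Count tests with edgeR 4.0.16 (197 members risen and 28 fallen, beside 63.4% and 1.23% of all uaRNAs) and DESeq2 1.42.0 on the recovered reads were alternatives. Scripts were tested on simulated data. Replicates differed beyond counting noise (lowest chi-square over its degrees of freedom 4.74) and were kept apart.

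Upstream genes were those of RefSeq (GRCm38.p6), at its coordinates, or, where a symbol was not in RefSeq, of the gene table, within 1000 bases of the host start. Strands came from the gene, promoter and microRNA tables. Named genes are the 10 members highest in siNT uaRNA and in siNT ratio, the 8 largest rises and falls of uaRNAs, the 5 largest of hosts and ratios each way, those nearest each limit (1 of them is not reported here), and all with a small structured RNA upstream.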

Additional observations from a re-analysis of the deposited data

How the results depend on the processing

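The count of 196 risen uaRNAs stayed within 1.5 times under another pseudocount, other filters, exon-based scalings, edgeR, DESeq2 and the replicate block. It was 16 risen and 204 fallen when each table was scaled on itself, which sets most uaRNAs near 0 by construction. That scaling also turned Gid8 (-0.52), 4933428G20Rik (-0.71), Akt1s1 (-0.53), Ring1 (-0.77), Acaa2 (-0.79) and Ndufaf3 (-0.72) and gave 6 risen and 136 fallen ratios. Leaving out 1 library gave 121 to 188 risen and 7 to 38 fallen uaRNAs, 0 to 40 risen and 0 to 5 fallen hosts, 30 to 117 risen and 9 to 41 fallen ratios, and 449 to 482 members. In a single siZC3H4 library 446 to 448 members kept a ratio of 0.5, beside 13.1% to 16.4% of all regions. Gtf3c6 ran from -0.93 to 0.019, turning without siZC3H4 replicate 2, as did Ccdc107 (0.086), which was not called. Shares of all features moved too. Without 1 siNT library, 55.3% to 60.4% of all uaRNAs rose and 0.62% to 1.7% fell, and 42.9% to 52.5% of all ratios rose. Fallen uaRNAs were 15 with no filter and 14 with members chosen on siNT replicate 3, beside 0.58% and 0.62% of all uaRNAs. With no gene within 5 kb, an alternative chosen after seeing the data, 115 rose and 10 fell among fewer members. Risen hosts numbered 3 with no filter and 33 with DESeq2, beside 0.29% and 4.68% of all genes. They numbered 0, 10 and 41 with members chosen on siNT replicates 1, 2 and 3, beside 0.016%, 1.32% and 5.42% of all genes. Fallen hosts numbered 0 with no filter, 1 with a filter of 50 and 1 with equal exon totals, beside 0%, 0.125% and 0.16% of all genes. They numbered 0, 0 and 5 in those splits, beside 0%, 0.0879% and 1.1% of all genes, and 0 among members with no gene upstream. Samples with the same number deviated together (correlation 0.62 for exons, 0.44 for uaRNAs), but that gives 1 correlation per table, and the labels give a number alone, so pairing is not established. With the replicate block 202 uaRNAs rose (62.1% of all), 80 hosts rose and 16 fell (12.3% and 6.65% of all genes), 57 ratios fell (1.72% of all), and Ccdc107 (-0.49), Gid8 (0.41) and Akt1s1 (0.51) passed the test. The rule found 900 members at a ratio of 0.25, 226 at 1 and 305 with no gene upstream, and 272 had a gene within 5000 bases. Causes of these shifts were not tested. With 2 libraries on one side, small changes lie below what the counts of called features can show.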
